A study of Mus musculus with 82 samples.

Results

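The genes examined here were 9 regulators of coagulation and fibrinolysis in mouse skin, namely the plasminogen activators Plat and Plau, the urokinase receptor Plaur, plasminogen (Plg), the protease inhibitor Serpine2, tissue factor (F3), thrombomodulin (Thbd), tissue factor pathway inhibitor (Tfpi) and von Willebrand factor (Vwf). Probes were assigned by gene symbol, and where a gene had several probes the one with the highest mean log2 intensity over the 82 arrays was used. All 9 had a probe, out of 18690 genes with a symbol on the array, and all 9 entered the test, out of 15695 genes whose chosen probe was tested.

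Coagulation starts when tissue factor, a membrane protein of cells outside the vessel lumen, meets factor VII, and it ends in a fibrin clot that plasmin later dissolves. Plasmin is made from plasminogen by tissue-type (Plat) or urokinase-type (Plau) activator, the latter working on the cell surface through its receptor Plaur, while serpins such as Serpine2 restrain the proteases. Resting endothelium displays thrombomodulin and releases Tfpi, both anticoagulant, and stores von Willebrand factor, the protein that tethers platelets to an injured wall. In skin, plasminogen activators and tissue factor are also made by keratinocytes.

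Adult male C57BL/6j mice received a single whole-body X-ray dose of 1, 3, 6 or 20 Gy, and sham mice went through the exposure procedure with the beam off. Dorsal skin was biopsied at 2 h (h2) and on days 4, 7, 21 and 28 (d4 to d28) from the same animals, so that the time points of one dose share mice. The labels name no engineered allele and no other agent in any group, sham included. Mice given 20 Gy were euthanized at d7, so that this dose has no later biopsy. Each of the 82 arrays set skin RNA labelled with Cy5 against a commercial pool of mouse reference RNA labelled with Cy3, with no dye swap, and the measure throughout is the log2 ratio of Cy5 to Cy3 after background correction and loess normalization. From h2 to d28 the sham group held 4, 4, 4, 2 and 2 arrays, 1 Gy 4, 4, 2, 4 and 4, 3 Gy 5, 5, 3, 4 and 3, and 6 Gy 4, 4, 2, 3 and 4. The 20 Gy group held 4, 4 and 3 arrays at h2, d4 and d7. A gene was called when the limma test gave a Benjamini-Hochberg adjusted p below 0.05 over all 30294 tested probes and the change reached 2-fold. In a piece of whole skin, fewer cells of a type and less RNA per cell cannot be told apart.

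The arrays differed in brightness in a way that runs with the lethal dose. All 11 arrays of 20 Gy were read on one scanner (scanner 1), as were 8 of the 16 sham arrays and 2 arrays each of 1, 3 and 6 Gy. On that scanner an array's median Cy5 intensity was 48 to 64 in sham skin at h2 and 54 to 63.5 at d4, against 29.5 to 33 and 29 to 31.5 after 20 Gy, although the 3 sham arrays and the 4 arrays of 20 Gy of each time were scanned on the same day. The reference channel was similar, with median Cy3 intensities of 98 to 130 and 99 to 115 in sham skin and 96 to 110 and 99 to 106 after 20 Gy. At d7 both groups were dim on scanner 1, with median Cy5 intensities of 23 to 23.5 in sham skin and 22 to 26.5 after 20 Gy. The median sham array had 56.4% of its probes above background and the median 20 Gy array 43.4%. A normalized ratio is therefore a level relative to the rest of its own array, and the part of RNA amount or labelling in the 20 Gy values was not tested.

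After 20 Gy, Plaur and Plau were higher than in sham skin and F3 and Serpine2 were lower, at h2 or d4 or both. At h2, 2 of the 9 genes were called, Plaur higher and F3 lower, when 9.12% of all tested probes were called. At d4, 4 of 9 were called, Plaur and Plau higher and F3 and Serpine2 lower, against 11.2% of all probes. At d7 none of the 9 was called by limma, against 1.83% of all probes, and 2 had an unadjusted p below 0.05. Over the 9 genes the log2 change had a median of 0.36 at h2, 0.06 on d4 and -0.03 on d7, and over all probes medians of 0, -0.02 and 0.02. The arrays of 20 Gy and sham did not overlap for 3 genes at h2, 6 on d4 and 3 on d7, and of all tested probes 32.9%, 42% and 16.8% did not overlap. A lack of overlap was thus common on these arrays and is not particular to the 9 genes. The sham arrays differ between times and come partly from the same mice.

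Markers of other skin cells moved in the same comparisons, in both directions. Of 8 epidermal markers, each above background on all sham and 20 Gy arrays, limma called 4 at h2 (2 up, 2 down), 6 on d4 (3 up, 3 down) and 2 on d7 (both down), with medians of -0.03, -0.47 and -0.95. Krt5, a keratin of basal keratinocytes, rose by 2.90 at h2 and 3.08 at d4, and Lor, a protein of the cornified layer, by 1.54 and 1.64. The desmosomal cadherin Dsg1a fell by 3.43 and 3.60 and Trp63, the transcription factor of basal keratinocytes, by 2.77 and 2.5. Of 8 fibroblast and matrix markers, 1 was called up and 1 down at h2, 1 down on d4 and 5 down on d7 (medians -0.06, -0.41 and -3.61), with Col1a2 2.12 higher at h2. Of 6 muscle markers, 1 was called at h2 and at d4, Myh4, which rose by 2.98 and 2.37. Of 10 p53 targets, the calls were 1 up at h2, 4 up and 1 down on d4 and 1 up on d7 (medians 0.10, 0.45 and 0.36), Sesn2 rising by 1.57 at h2 and 2.72 at d4. Of the markers of growing hair follicle, macrophages, neutrophils, red cells and fat, the calls were 1 follicle gene at h2, 2 macrophage genes, 1 red cell gene and 1 fat gene at d4 and 2 fat genes at d7, each lower after 20 Gy, and no neutrophil gene was called. The liver marker Trf was called lower at d4 (-3.39, adjusted p = 0.00698). The part of these cell types in the values of the 9 genes was not tested.

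**Figure D1:**
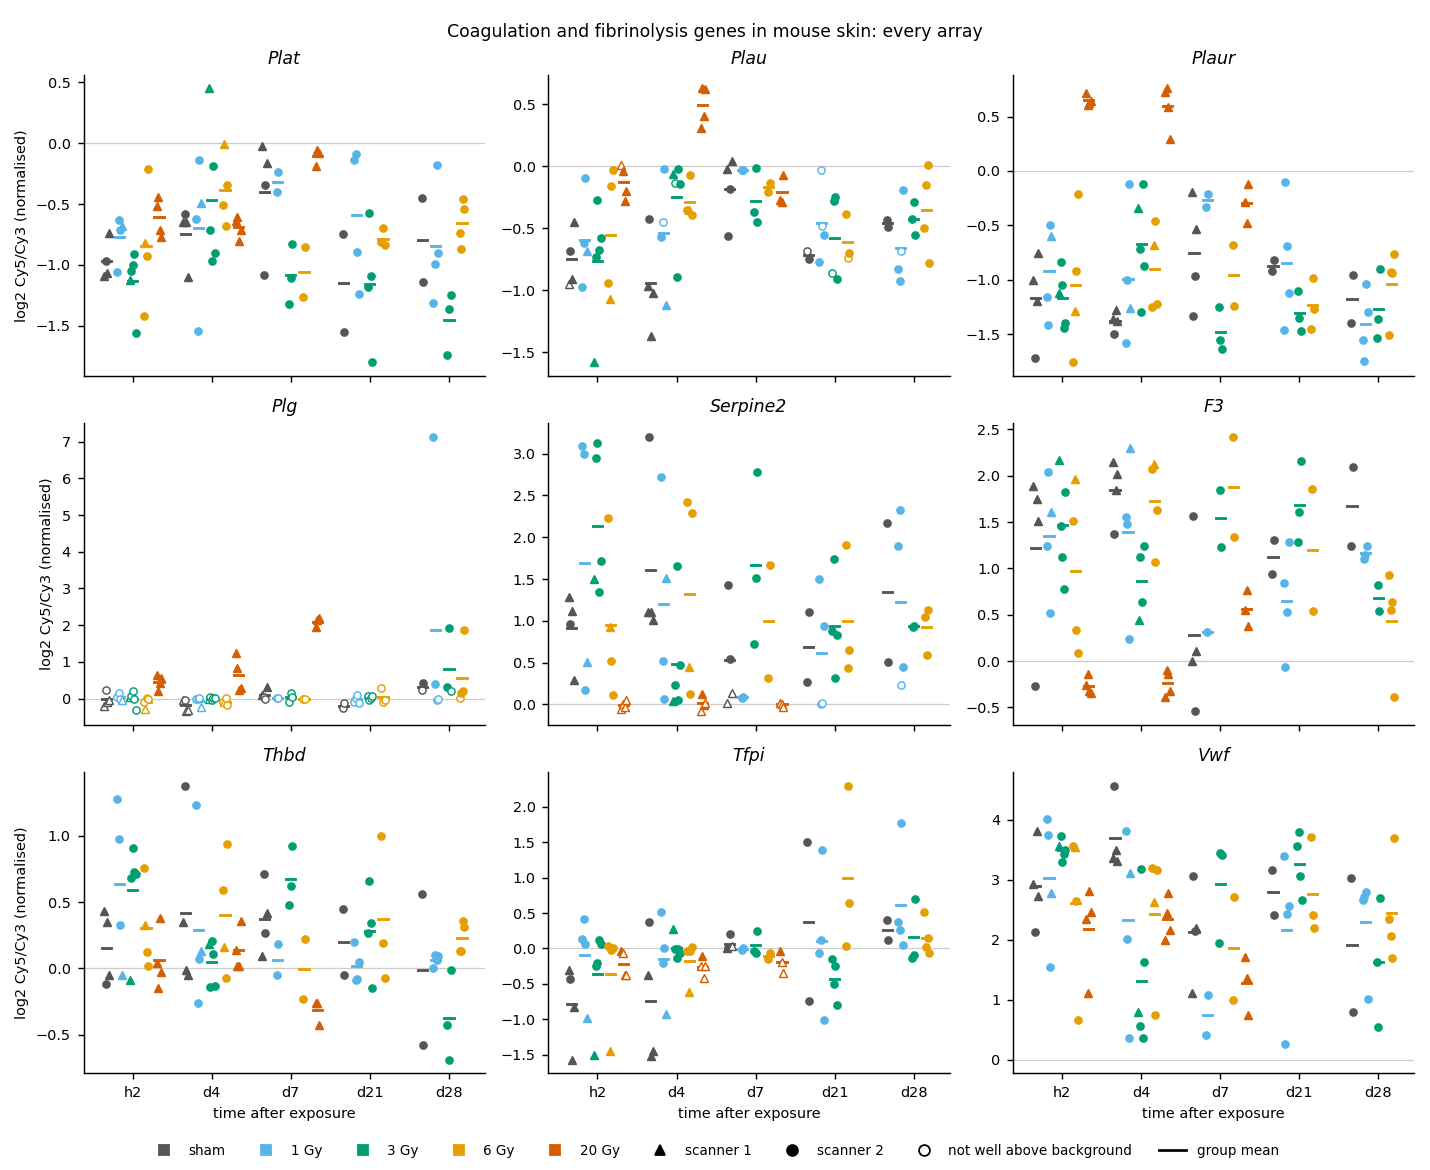
Log2 ratio of Cy5 to Cy3 of the 9 genes on every array, by dose and time, with a point per array (triangles for scanner 1, circles for scanner 2, open where not well above background) and a bar at the group mean. Plaur sits above its sham level on all 20 Gy arrays of h2 and d4 (0.29 to 0.76, sham -1.72 to -0.75), and F3 sits at -0.39 to -0.10 on the same arrays.

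The proximal promoters of the called genes Plaur, F3 and Serpine2 are shown because these genes changed in the same biopsies. RefSeq (GRCm38.p6) windows were at hand for 4 of the 9 genes, and Plau, another gene called after 20 Gy, was not among them. Each line gives the 250 bases before the transcription start, 5′ to 3′, with motif matches on either strand in capitals, from chr7:24462233-24462482 (plus strand) for Plaur, chr3:121723287-121723536 (plus strand) for F3 and chr1:79858666-79858915 (minus strand) for Serpine2.
Plaur: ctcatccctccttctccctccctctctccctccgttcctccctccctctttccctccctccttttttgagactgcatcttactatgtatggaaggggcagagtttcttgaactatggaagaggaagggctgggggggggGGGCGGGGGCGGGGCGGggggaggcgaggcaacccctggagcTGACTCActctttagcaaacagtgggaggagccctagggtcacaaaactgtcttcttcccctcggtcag
F3: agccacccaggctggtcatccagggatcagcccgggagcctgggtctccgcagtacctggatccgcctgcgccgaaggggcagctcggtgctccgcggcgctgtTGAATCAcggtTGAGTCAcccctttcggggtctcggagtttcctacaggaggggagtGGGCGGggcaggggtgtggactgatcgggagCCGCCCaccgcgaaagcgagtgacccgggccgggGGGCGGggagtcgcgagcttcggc
Serpine2: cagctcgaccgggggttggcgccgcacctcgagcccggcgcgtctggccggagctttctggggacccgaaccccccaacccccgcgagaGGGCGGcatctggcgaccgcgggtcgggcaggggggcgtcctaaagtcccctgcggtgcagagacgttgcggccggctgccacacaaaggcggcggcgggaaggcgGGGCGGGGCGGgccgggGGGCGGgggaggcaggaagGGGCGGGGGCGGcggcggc
The capitals mark matches to the AP-1 motif, spelled TGANTCA, the GC box, spelled GGGCGG, and the EGR motif, spelled GCGNGGGCG. The TATA box, spelled TATAAA, the CCAAT motif, the E-box, spelled CACGTG, and an NF-kB motif were searched as well and had no match in these 3 windows. The F3 window held 2 AP-1 matches, at 146 to 140 and 135 to 129 bases before the start, and the Plaur window held 1, at 69 to 63. An AP-1 match was present in 6.75% of 32851 mouse promoter windows of the same length. All 3 windows held GC boxes, 3 in F3, 3 in Plaur and 6 in Serpine2, where 32.7% of all windows held at least 1. An EGR match overlapped the GC boxes of Plaur and of Serpine2 and occurred in 4.7% of windows. The GC content was 59.6% in Plaur, 70% in F3 and 78.8% in Serpine2, against a median of 52.4% over all windows. A match of letters is a description of the window and not evidence of binding.

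Plaur, the surface receptor that holds urokinase at the cell edge, was higher after 20 Gy at h2 and d4. At h2 its log2 ratios were -1.0, -1.72, -1.20 and -0.75 on the sham arrays and 0.72, 0.61, 0.62 and 0.64 after 20 Gy. At d4 they were -1.36, -1.50, -1.28 and -1.38 in sham skin and 0.73, 0.76, 0.59 and 0.29 after 20 Gy. Every 20 Gy array lay above every sham array at both times. Plaur rose by 1.81 on the log2 scale at h2 (SE 0.27, 95% CI 1.28 to 2.34, limma adjusted p = 4.53e-07) and by 1.97 at d4 (SE 0.27, 95% CI 1.44 to 2.51, adjusted p = 5.44e-08), which is 3.51-fold and 3.92-fold. At d7 the sham arrays read -0.19, -1.33, -0.97 and -0.53 and the 20 Gy arrays -0.29, -0.48 and -0.12. The groups overlapped at d7 and the difference of 0.46 was not called (SE 0.29, 95% CI -0.12 to 1.04, adjusted p = 0.603).

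The difference for Plaur was one of ratio and not of raw brightness. On scanner 1 its Cy5 intensity was 283 to 380 in sham skin at h2 and 104 to 186 after 20 Gy, and at d4 226 to 402.5 and 124 to 162. Its spot was thus dimmer after 20 Gy in raw terms, and the rise is one relative to spots of like brightness on the same array. On scanner 1 alone Plaur was 1.63 higher at h2 and 1.93 higher at d4, both called, and 0.06 higher at d7. A second Plaur probe was called at the same times, with log2 changes of 1.05 at h2 and 1.16 at d4. When arrays were only centred on their median, with no correction for brightness, the change was -0.63 at h2 and 0.13 at d4, and neither was called, whereas the deposited values gave 0.56 and 0.75, both short of 2-fold.

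Plau, urokinase itself, moved in the same direction as its receptor at d4. Its log2 ratios at d4 were -0.96, -0.42, -1.37 and -1.02 in sham skin and 0.31, 0.63, 0.41 and 0.62 after 20 Gy. All 4 arrays of 20 Gy exceeded all 4 sham arrays. Plau rose by 1.43 (SE 0.22, 95% CI 0.99 to 1.88, limma adjusted p = 1.33e-06), or 2.7-fold. At h2 the sham arrays read -0.95, -0.68, -0.91 and -0.45 and the 20 Gy arrays 0.01, -0.04, -0.28 and -0.20. These did not overlap either, but the difference of 0.62 (SE 0.22, adjusted p = 0.0343) stayed under 2-fold. At d7, with sham arrays at -0.02, -0.56, -0.18 and 0.04 and 20 Gy arrays at -0.27, -0.29 and -0.07, the difference was -0.03 (SE 0.24, 95% CI -0.51 to 0.45). The Plau spot was above background on 72 of 82 arrays, and its raw Cy5 intensity on scanner 1 at d4 was 46 to 51 in sham skin and 39.5 to 56 after 20 Gy. A second, fainter Plau probe, above background on 9 arrays, gave 0.28 at d4 and was not called. The call was also lost with median centring (0.59, adjusted p = 0.167) and in the deposited values (0.02).

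Plat, the tissue-type activator, is the counterpart of Plau in vessel walls. It read -1.09, -0.97, -1.07 and -0.74 in sham skin at h2 and -0.52, -0.44, -0.71 and -0.77 after 20 Gy. At d4 the sham arrays read -0.65, -0.58, -0.65 and -1.10 and the 20 Gy arrays -0.64, -0.61, -0.80 and -0.71. The groups overlapped at both times. The log2 differences were 0.36 at h2 (SE 0.26, adjusted p = 0.328), 0.06 at d4 and 0.29 at d7, and none was called by limma. Plat was above background on all 82 arrays, yet on scanner 1 at h2 its raw Cy5 intensity was 373.5 to 436 in sham skin and 43 to 51.5 after 20 Gy, so that a ratio that was not called went with a much dimmer spot. On the 6 scales used below, Plat was under 0 on 3 at h2 and on 4 at d4, and median centring called it lower at h2 (-1.80, adjusted p = 0.0213) while it gave -1.39 at d4.

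Plasminogen (Plg), the zymogen made mainly by liver, was near the limit of detection in this skin. Its probe was above background on 21 of 82 arrays, which were 11 of the 11 arrays of 20 Gy, 3 of the 16 sham arrays and 7 others. At d7 the log2 ratios were 0.11, 0.03, -0.02 and 0.31 in sham skin and 1.94, 2.14 and 2.20 after 20 Gy. The groups were far apart, and the raw Cy5 intensity on scanner 1 was 29 to 37 and 106 to 146. The change of 1.98 (SE 0.64, 95% CI 0.71 to 3.26) was not called by limma, with an adjusted p of 0.061. The spread of this probe over all groups was set largely by 1 array of 1 Gy at d28 (mouse M006), which read 7.13 with a Cy5 intensity of 6216.5, while the other 3 arrays of that group read at most 0.40. On scanner 1 alone, which leaves that array out, the d7 change was 1.88 and was called (adjusted p = 5.6e-05).

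At h2 Plg read -0.20, 0.24, -0.08 and -0.04 in sham skin and 0.64, 0.20, 0.43 and 0.56 after 20 Gy, and at d4 -0.04, -0.03, -0.34 and -0.30 against 1.25, 0.82, 0.23 and 0.29. Only the d4 groups did not overlap. No sham array of h2 or d4 was above background, so that no size is given there, and neither comparison was called (adjusted p = 0.6 and 0.291). The direction was up on all 6 scales tried at h2, d4 and d7, of which 2, 3 and 4 called it. Of the liver marker genes, Alb, Apoa1, Ttr, Apoh and Fabp1 were above background on 0 of the 11 arrays of 20 Gy, Apoa2 on 1 and Trf on 11. On the 71 other arrays Alb was above background on 30, Apoa2 on 11, Apoh and Fabp1 on 10 each, Apoa1 on 8, Ttr on 1 and Trf on 71. Those arrays include d21 and d28 and both scanners, whereas the 20 Gy arrays end at d7 and are of scanner 1. At h2, d4 and d7, 1 or 2 of the 6 tested liver markers were above background on each array of sham and of 20 Gy. On the sham arrays of d28 it was 1 to 6. At d28 the liver markers were high where Plg was high. The mean log2 ratio of the 6 tested liver markers was 7.21 on the 1 Gy array of M006, where Plg read 7.13, 3.21 in 3 Gy mouse M014, where Plg read 1.93, and 3.01 in 6 Gy mouse M020, where Plg read 1.88. On the other 10 arrays of d28 it was 0.35 to 2.01 and Plg read at most 0.42. After 20 Gy the mean was 0.04 to 0.38. The part of liver RNA in the d28 values was not tested. The second Plg probe, above background on 11 arrays, differed by 0.18, 0.13 and 0.02 at the 3 times.

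Serpine2, or protease nexin, inhibits thrombin, urokinase and plasmin at cell surfaces. At d4 its log2 ratios were 1.10, 3.20, 1.10 and 1.01 in sham skin and -0.08, 0.12, -0.01 and 0.02 after 20 Gy. All 20 Gy arrays were near 0 and lay below all sham arrays. Serpine2 fell by 1.59 (SE 0.58, 95% CI -2.76 to -0.42, limma adjusted p = 0.0314), or 3.01-fold. The call was lost in 5 of the 8 fits that left out 1 array of these groups, in which the change ranged from -1.79 to -1.06, and it was -1.06 and called on scanner 1 alone. It was also lost with slide as a random block (-1.71, adjusted p = 0.078) and against the sham arrays of all times (-1.0, adjusted p = 0.0999), and in the deposited values the change was under 2-fold. At h2 sham skin read 1.29, 0.96, 1.12 and 0.29 and 20 Gy skin -0.06, 0.00, -0.03 and 0.05, again with no overlap, but the fitted difference of the measured ratios (-0.92) was not called (SE 0.58, adjusted p = 0.252), whereas it was called with the scanner's own ratio (-3.34) and plain background subtraction (-2.10).

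The Serpine2 probe was above background on 66 of the 71 arrays of sham, 1, 3 and 6 Gy (93%) and on 2 of 11 after 20 Gy (18.2%). No 20 Gy array measured it at h2, where only a bound can be given and sham skin was at least 1.62-fold higher in Cy5 signal, nor at d7, where 2 of 4 sham arrays measured it and the comparison was not called (adjusted p = 0.889). At d7 the sham values were 0.02, 1.43, 0.54 and 0.14 and the 20 Gy values 0.02, 0.01 and -0.03. The high sham values of d7 were those of scanner 2. On all 6 scales the 20 Gy value was the lower one at h2, d4 and d7.

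F3, tissue factor, the trigger of the extrinsic pathway, was lower after 20 Gy at both h2 and d4. At d4 it read 2.15, 1.37, 1.85 and 2.02 in sham skin and -0.39, -0.10, -0.14 and -0.32 after 20 Gy. The groups did not overlap, and F3 fell by 2.08 (SE 0.42, 95% CI -2.92 to -1.25, limma adjusted p = 0.000123), or 4.24-fold. At h2 the sham arrays read 1.89, -0.27, 1.75 and 1.51 and the 20 Gy arrays -0.26, -0.14, -0.32 and -0.35. The groups overlapped through the sham array of -0.27, the one of scanner 2. F3 fell by 1.49 at h2 (SE 0.42, 95% CI -2.32 to -0.65, adjusted p = 0.00653), or 2.81-fold, and by 1.98 with scanner 1 alone.

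The raw signal of F3 moved with its ratio. On scanner 1 the Cy5 intensity was 1175 to 1564 at h2 and 1370 to 1864 at d4 in sham skin, against 35 to 47.5 and 38 to 52 after 20 Gy. The Cy3 intensity of the same spots was 544 to 643 and 548 to 629.5 in sham skin and 417.5 to 575.5 and 498 to 527 after 20 Gy. At d7 sham skin gave 0.00, 1.57, -0.54 and 0.11 and 20 Gy skin 0.55, 0.77 and 0.38, which overlapped, with a difference of 0.28 (SE 0.45, adjusted p = 0.931). On scanner 1 the F3 spot read 25 to 28 in sham skin at d7 and 33 to 49 after 20 Gy, and its Cy3 intensity was 93 to 99 and 98.5 to 103, several times lower than at h2 and d4 in both groups. A second F3 probe was called in the same direction, with -1.06 at h2, -1.68 at d4 and then 0.11 at d7. The deposited values differ here, with F3 at 0.40 at h2 and 0.26 at d4 after 20 Gy, and neither was called.

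**Figure D2:**
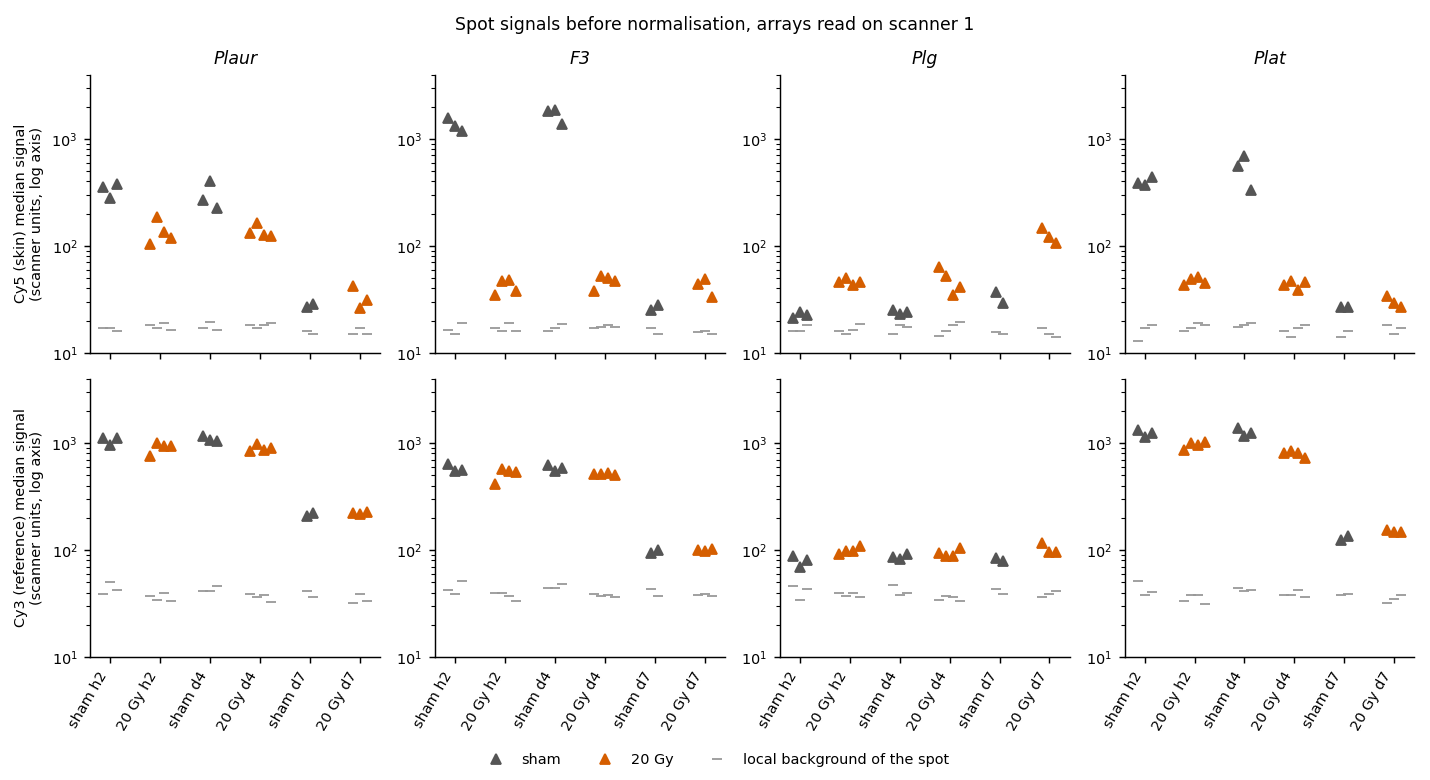
Median spot signal before normalization, in scanner units on a log axis, for Plaur, F3, Plg and Plat in Cy5 (skin, upper row) and Cy3 (reference, lower row) on scanner 1, sham against 20 Gy by time, with a point per array and a dash at its local background. The Cy5 spot of F3 lies at 1175 to 1864 in sham skin at h2 and d4 and at 35 to 52 after 20 Gy, that of Plaur at 226 to 402.5 and 104 to 186, while the Cy3 points of both genes stay close.

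Thrombomodulin (Thbd), the endothelial receptor that turns thrombin into an activator of protein C, was above background on all 82 arrays and did not pass the test after 20 Gy. At d7 it read 0.09, 0.71, 0.27 and 0.42 in sham skin and -0.26, -0.26 and -0.43 after 20 Gy. These groups did not overlap, and the difference was -0.69 (SE 0.28, 95% CI -1.25 to -0.12, adjusted p = 0.214). It was called lower with the scanner's own ratio (-1.55), plain background subtraction (-1.5) and quantile scaling (-1.05). At h2 sham skin read 0.43, -0.12, 0.35 and -0.05 and 20 Gy skin 0.04, -0.15, 0.38 and -0.03. The h2 groups overlapped throughout, with a difference of -0.09 (SE 0.26, adjusted p = 0.836), and at d4 the difference was -0.29. Median centring alone called it lower at these times, with -2.09 at h2 and -1.71 at d4. On scanner 1 at h2 the raw Cy5 intensity of Thbd was 387 to 624 in sham skin and 52 to 82 after 20 Gy. Its Cy3 intensity was 552.5 to 721 and 592 to 650.5.

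Tfpi, the inhibitor of the tissue factor and factor VII complex, was above background on 73 of 82 arrays but on 3 of the 11 arrays of 20 Gy. It read -0.31, -0.43, -1.57 and -0.83 in sham skin at h2 and -0.04, -0.06, -0.38 and -0.37 after 20 Gy, and at d4 -0.38, 0.38, -1.52 and -1.44 against -0.25, -0.11, -0.42 and -0.24. The groups overlapped at both times, and the differences of 0.57 at h2 (SE 0.41, adjusted p = 0.322) and 0.49 at d4 were not called. For this gene the reference channel differed too, since the Cy3 intensity on scanner 1 was 734 to 913 in sham skin at h2 and 226.5 to 265 after 20 Gy. Its ratio after 20 Gy therefore rests on lower signals in both channels.

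Von Willebrand factor (Vwf), made by endothelium and megakaryocytes, was above background on all 82 arrays. At h2 it read 2.93, 2.13, 3.81 and 2.73 in sham skin and 2.34, 1.12, 2.81 and 2.47 after 20 Gy, and at d4 3.36, 4.57, 3.50 and 3.32 against 2.00, 2.44, 2.78 and 2.17. The h2 groups overlapped and the d4 groups did not. The log2 differences were -0.72 at h2 (SE 0.66, adjusted p = 0.451), -1.34 at d4 (SE 0.66, 95% CI -2.65 to -0.03, adjusted p = 0.109) and -0.86 at d7 (SE 0.71, adjusted p = 0.774). None was called over all arrays, whereas on scanner 1 alone the d4 difference of -1.04 was called. A second Vwf probe was called at d4, with -2.41. Median centring called Vwf lower at h2 (-2.16) and d4 (-2.30), and the deposited values at d4 (-1.37) and d7 (-1.20). On scanner 1 at h2 the raw Cy5 intensity of Vwf was 1438 to 2065.5 in sham skin and 137 to 192 after 20 Gy. Its Cy3 intensity was 202 to 315.5 and 167 to 187.

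**Figure D3:**
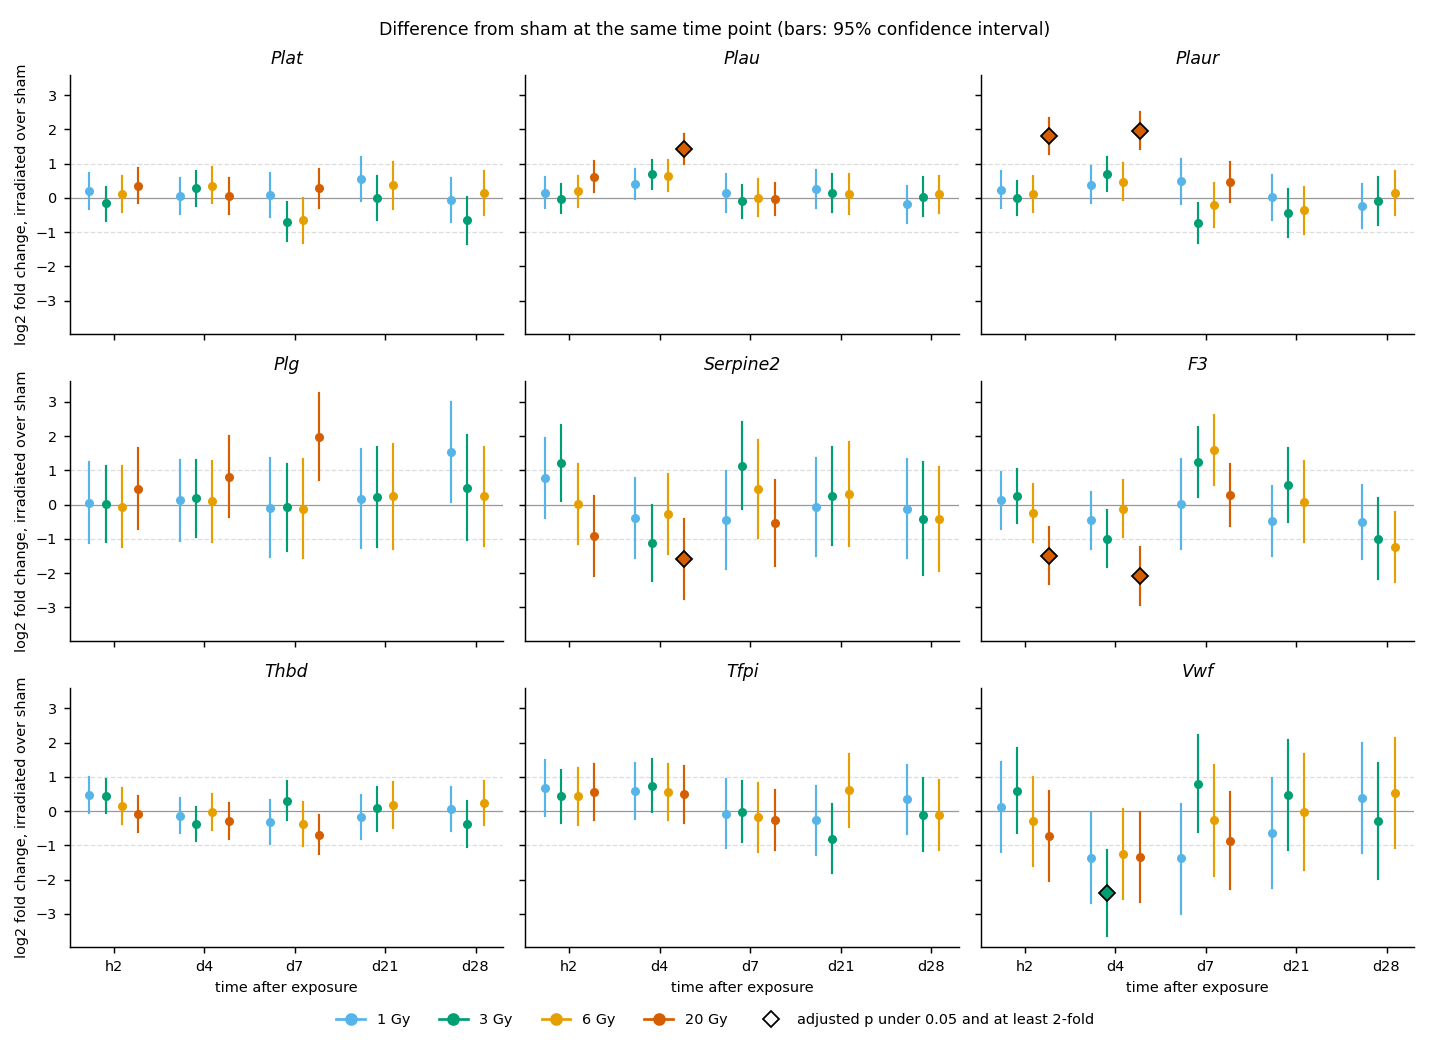
Log2 difference from the sham group of the same time, with its 95% confidence interval, for the 9 genes after each dose and time, called values marked by diamonds. After 20 Gy the called values are Plaur at 1.81 and 1.97, Plau at 1.43, F3 at -1.49 and -2.08 and Serpine2 at -1.59, and after the sublethal doses Vwf at 3 Gy d4 at -2.38.

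The doses of 1, 3 and 6 Gy gave few calls. Of 135 tests, the 9 genes in 15 comparisons with sham, limma called 1, and 15 had an unadjusted p below 0.05. Of all tested probes, 5.26% were called at 3 Gy d4, 0.0396% at 6 Gy d4 and 0.0066% at 6 Gy d7, and 0.0165%, 0.00993% and 0.0198% at d28 after 1, 3 and 6 Gy. In the other 9 comparisons 0% of probes were called. The range of the log2 difference over these 15 comparisons was -0.69 to 0.56 for Plat, -0.19 to 0.69 for Plau, -0.73 to 0.71 for Plaur and -0.12 to 1.54 for Plg, whose top value came from the 1 Gy d28 array named above. It was -1.11 to 1.21 for Serpine2, -1.24 to 1.6 for F3, -0.38 to 0.48 for Thbd, -0.81 to 0.75 for Tfpi and -2.38 to 0.80 for Vwf. After outlier spots were left out, F3 lacked a value on 7 of these arrays, Serpine2 on 2 and Plaur on 1. The largest F3 values were opposite in sign, 1.6 at 6 Gy d7 and -1.24 at 6 Gy d28, and rested on 2 arrays at 6 Gy d7 and on 2 sham arrays at d28.

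The single call was Vwf at d4 after 3 Gy. The 3 Gy arrays read 0.79, 0.56, 3.18, 0.36 and 1.63 and the sham arrays 3.36, 4.57, 3.50 and 3.32. All 5 lay below all 4 sham arrays, and Vwf fell by 2.38 (SE 0.62, 95% CI -3.63 to -1.14, limma adjusted p = 0.0153), or 5.21-fold. The direction was the same on all 6 scales, from -2.38 to -0.50, but the call held on 1 of them, and it was lost in 5 of 9 fits that left out 1 array, with changes of -2.85 to -2.09. Of the sham arrays 3 of 4 were of scanner 1 and of the 3 Gy arrays 4 of 5 of scanner 2. The change was -2.37 with scanner as a block (adjusted p = 0.0952), -2.34 with scan date as a random block (adjusted p = 0.0775) and -3.14 on scanner 2 alone (adjusted p = 0.587), none of them called, and -2.60 on scanner 1 alone, with 1 array of 3 Gy, where it was called. Against all sham arrays of all times it was -1.46 (adjusted p = 0.142). A second Vwf probe was called as well, at -2.17. Plau (0.69, adjusted p = 0.0239) and Plaur (0.71, adjusted p = 0.0453) were higher in the same comparison but under 2-fold, and the second Plaur probe was called (1.19, adjusted p = 0.0151). The 1 Gy arrays of d4 read 3.81, 2.02, 0.37 and 3.12 for Vwf and the 6 Gy arrays 3.19, 2.63, 0.74 and 3.17, and neither dose was called. In ratio, the lowest array of each dose was far below the sham arrays, while the highest of 1 Gy lay among them. The spot signals of scanner 2 did not follow these ratios throughout. Mouse M018 of 6 Gy read 0.74 with Cy5 637 and Cy3 260, and M020 read 3.17 with 601.5 and 328.5. Mouse M014 of 3 Gy read 0.36 with 644.5 and 373. The deposited values were 4.59 for M009 of 1 Gy, 4.07 for M018 and 3.92 for M014, within the sham range of 3.55 to 4.67. Those of 3 Gy mice M011 and M012 were lower, at 3.00 and 3.02.

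Endothelial markers moved with Vwf. Of 12 endothelial marker genes, all tested, 7 were lower at d4 after 3 Gy (median -1.39) and 7 at d4 after 20 Gy (median -1.52), 2 were lower at h2 after 20 Gy (median -1.0) and none was called at d7 (median -0.41). The mean log2 ratio of the list per array was 1.99 to 3.15 in sham skin at d4, 0.17 to 1.93 after 3 Gy and 0.57 to 0.90 after 20 Gy. Between 11 and 12 of the 12 markers were above background on each 3 Gy array of d4 and 9 to 10 on each 20 Gy array. Cdh5, the cadherin of endothelial junctions, fell by 2.82 at d4 after 3 Gy (SE 0.73, adjusted p = 0.0153). Markers of other kinds were called in the same comparison. The red cell gene Hba-a1 fell by 3.65 (adjusted p = 0.0141) and the keratinocyte gene Trp63 by 2.91 (adjusted p = 0.0248). The p53 target Bax rose by 1.06 (adjusted p = 0.0141). Smooth muscle and pericyte markers were called lower for 3 of 6 genes at 3 Gy d4 and 2 of 6 at 20 Gy d4, while 0 of 7 platelet markers were called in either (medians 0.40 and 0.25). At d7 after 20 Gy the platelet gene Pf4 was called lower (-1.92, adjusted p = 0.0464). The part of the endothelial content of a biopsy in the Vwf values was not tested.

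Sham skin itself was compared over time as the background of these contrasts. None of 36 tests, the 9 genes at 4 later times against h2, was called by limma, and 6 had an unadjusted p below 0.05. Of all probes, 0% were called at d4, 0.294% at d7, 0.0233% at d21 and 2.72% at d28. Among sham arrays F3 had an SD of 1.01 (h2), 0.34 (d4) and 0.90 (d7), with n = 4 each, and Plaur one of 0.41, 0.09 and 0.50.

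The lethal dose was also set directly against the highest sublethal one. At h2 and at d4, 1 array of 6 Gy was of scanner 1 and 3 were of scanner 2, while all 20 Gy arrays were of scanner 1. Dose and scanner thus largely coincide in these comparisons as well. At h2, 2 of the 9 genes were called between 20 and 6 Gy, against 5.15% of all probes, and at d4 2 again, against 5.39%. Plaur was higher after 20 Gy by 1.69 at h2 (SE 0.27, limma adjusted p = 2.45e-06) and by 1.5 at d4 (adjusted p = 2.47e-05), its 6 Gy arrays reading -1.76, -1.29, -0.92 and -0.21 at h2 and -1.25, -0.68, -0.46 and -1.22 at d4. F3 differed by -1.24 at h2 (SE 0.42, adjusted p = 0.0366), and by -1.96 at d4 (adjusted p = 0.000416), its 6 Gy arrays reading 1.51, 1.97, 0.34 and 0.09 at h2 and 2.07, 2.13, 1.07 and 1.63 at d4. No 6 Gy array reached the 20 Gy range of either gene. The second Plaur probe, above background on 79 arrays, differed by 0.66 at h2 (adjusted p = 0.173) and 0.38 at d4 (adjusted p = 0.483) and was not called. With median centring the Plaur difference was 0.02 at h2 (adjusted p = 0.988) and -0.41 at d4, and in the deposited values it was 0.61 and 0.45, under 2-fold. The second F3 probe was called at d4 (-1.37, adjusted p = 0.00608) and not at h2 (-0.98, adjusted p = 0.0676). The F3 call of h2 was lost in 6 of 8 fits that left out 1 array and with slide as a random block (-1.23, adjusted p = 0.146). Plau differed by 0.78 at d4 (adjusted p = 0.0103), under 2-fold. Markers of other cells and p53 targets were also called between 20 and 6 Gy at h2 and d4. Higher were Krt5 (3.19 and 3.06), Lor (1.29 and 1.65), Myh4 (2.70 and 2.52), Cdkn1a (1.62 and 1.72) and Sesn2 (1.70 and 2.10). Lower were Ccng1 (-1.87 and -1.49), Lyz2 at h2 (-1.60) and the liver marker Trf at d4 (-2.96). Their part in the Plaur and F3 values was not tested.

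At d7, none of the 9 genes was called between 20 and 6 Gy by limma, against 3.77% of all probes, and 3 had an unadjusted p below 0.05. Plg was not called (adjusted p = 0.0934), and no 6 Gy array measured it above background. F3 differed by -1.31 (adjusted p = 0.159) and Plat by 0.94 (adjusted p = 0.0867). The 6 Gy group of d7 held 2 arrays, both of scanner 2, and all 20 Gy arrays were of scanner 1, so that dose and scanner cannot be told apart there.

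The change of the 20 Gy difference from h2 to d7 was tested as an interaction. Plaur was the only one of the 9 genes called, against 5.59% of all probes, its log2 difference changing by -1.35 (SE 0.39, 95% CI -2.14 to -0.57, limma adjusted p = 0.0201). F3 went the other way by 1.77 (SE 0.61, adjusted p = 0.0628) and was not called. The Plaur call was lost with median centring, where the change was 1.19, and in the deposited values (-0.07, adjusted p = 1). The reference signal moved with time as well. On scanner 1 the Cy3 intensity of the Plaur spot was 956.5 to 1114 in sham skin and 756 to 1006 after 20 Gy at h2, and 209.5 to 221.5 and 219 to 225 at d7, where the arrays were scanned on another day, while the array medians of Cy3 at d7 were 84 to 90 and 83 to 100. The part of scan day in this change was not tested. The call was lost as well in 3 of 9 fits that left out 1 array, and the second Plaur probe changed by -0.35 (adjusted p = 0.72) and was not called.

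The size of these differences depended on how the channels were scaled. On 6 scales (the normalized ratio used here, the scanner's own log ratio, plain background subtraction, median centring, quantile scaling between arrays and the deposited values) Plaur was called higher at h2 and d4 on 4, Plau at d4 on 4, F3 was called lower at h2 and d4 on 5 and Serpine2 at d4 on 5. F3 was above 0 on 1 scale at each of h2 and d4, the deposited one. At d7 the scanner's own ratio alone called F3 (1.81) and Plaur (1.07) higher. With the scanner's own ratio F3 at d4 was -2.82, Plau 3.08 and Serpine2 -2.67, each larger in size than on the scale used here. Vwf at 3 Gy d4 went the other way, with -0.72 against -2.38. The scale used here adds an offset of 50 to both channels, which draws the ratios of dim spots toward 0. The 2 scales differ in background and dye correction too, and the part of each step was not tested.

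**Figure D4:**
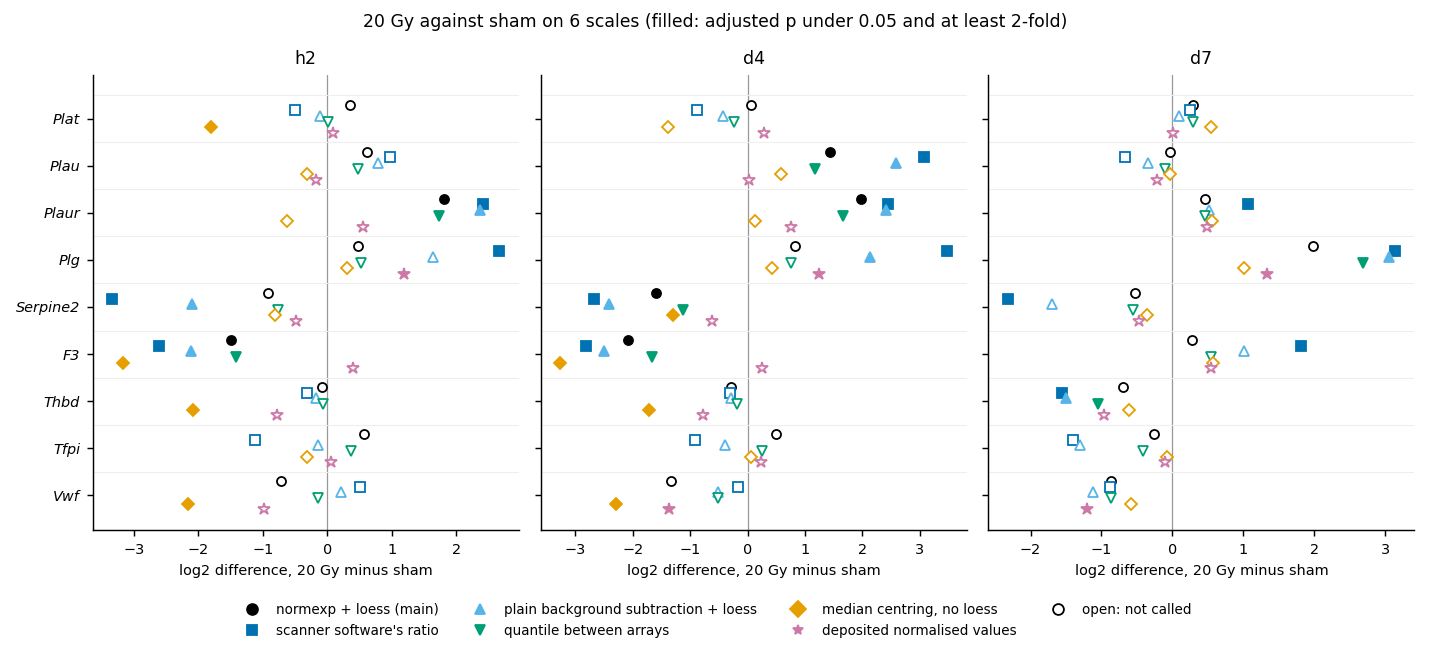
Log2 difference of 20 Gy from sham at h2, d4 and d7 for the 9 genes on 6 scales of the same arrays, a marker per scale, filled where called. Serpine2 lies below 0 and Plg above 0 on every scale, while F3 at d4 runs from -3.27 with median centring to 0.26 in the deposited values.

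The order of the group means set few groups apart. Between neighbouring groups in the order of the 23 means, the gap exceeded the larger SD of the pair for 1 of 22 gaps in Plat, Plau, Plaur, Plg and Vwf and for 0 of 22 in Serpine2, F3, Thbd and Tfpi. For Plaur the groups at the top were 20 Gy at h2 (0.65) and d4 (0.59), with a gap of 0.86 below them. For Plau the top group was 20 Gy at d4 (0.49), above 1 Gy at d7 (-0.03). The lowest F3 means were those of 20 Gy at h2 (-0.27) and d4 (-0.24) and the highest that of 6 Gy at d7 (1.88).

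Across the 82 arrays, the gene with the ratio most like that of each member was found among 15694 genes by Pearson correlation, which is a description, since arrays share mice, slides and brightness. Vwf ran with the endothelial genes Robo4 (r = 0.94) and Plvap (0.93), and Serpine2 with Tek (0.93) and Kcns3 (0.93). Plaur ran with Nup50 (0.94) and Pmf1 (0.92), and Plau with Tnfrsf10b (0.87). F3 had Sgpp1 (0.81) and Thbd Acad12 and Acvrl1 (0.80 each). Tfpi had Bbip1 (0.93), Plat Cdyl2 (0.73) and Plg Rdh16f2 (0.92) and Apob (0.91). Among the 9 genes themselves, Vwf, Thbd and Serpine2 ran together (r of 0.67 to 0.73 for the 3 pairs), Plaur and Plau had r = 0.66, and Plaur ran against F3 and Serpine2 (-0.67 each).

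The wider coagulation and fibrinolysis system was read from 5 lists of 47 other genes, of which 37 were tested. At h2 after 20 Gy 3 of the 37 were higher and 2 lower, when 9.12% of all tested probes were called. At d4 2 were higher and 6 lower, against 11.2% of all probes, and at d7 none was called, against 1.83%. After 3 Gy at d4 1 of the 37 was higher, against 5.26% of all probes. Of 11 tested coagulation factors and fibrinogen chains, none was called at any of the 3 times (medians 0.03, 0.00 and -0.02), and neither was any of 5 receptors of thrombin and handlers of von Willebrand factor (0.05, 0.00 and -0.06). Of the fibrinolysis inhibitors, Serpinb2, a serpin made by keratinocytes and macrophages, fell by 2.45 at h2 (adjusted p = 0.0412) and by 2.53 at d4 (adjusted p = 0.0274).

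The anticoagulants gave 1 higher and 1 lower of 7 at h2 and 2 lower at d4 (medians -0.25 and -0.15). Pros1, protein S, fell by 1.65 at h2 (adjusted p = 0.00517) and 1.61 at d4 (adjusted p = 0.00526), and Anxa5 fell by 1.09 at d4. Serpinc1, antithrombin, rose by 1.92 at h2 (adjusted p = 0.00755). Of 9 genes that bind plasminogen or help its activation, 1 was higher at h2, and 1 was higher and 3 lower at d4 (medians -0.18 and -0.04). Eno1, an enolase that also serves as a plasminogen receptor, rose by 2.40 at h2 (adjusted p = 0.000224) and 1.69 at d4. Anxa2 and Plgrkt, both plasminogen docking proteins, each fell by 1.06 at d4 (adjusted p = 0.00118 and 5.23e-05), and Vtn fell by 2.19.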

How the data were processed

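Gene expression was measured on 82 two-colour Agilent 4 x 44 K whole mouse genome arrays of skin biopsies from 24 mice on 26 slides. Per the file headers and labels, spots were read with Agilent Feature Extraction (10.10.1.1 and 11.0.1.1), and the deposited files hold Cy5 and Cy3 intensities, local backgrounds and the scanner's log10 ratio of Cy5 to Cy3 for 45018 spots. The authors also deposited normalized log2 values, whose steps are not named in the sources used here. These followed the scanner's log2 ratio with a correlation of at least 0.625 and slopes of 0.244 to 0.545 per array, so their direction is Cy5 over Cy3 while their scale and centring are unknown.

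Median intensities were corrected by normexp with an offset of 50 and normalized by loess within each array (limma 3.58.1, R 4.3.3), with 1639 control spots given no weight and spots flagged as outliers (0.704% of values) left out. This left out 7 F3, 2 Serpine2 and 1 Plaur values, each in a different group of 1, 3 or 6 Gy for its gene. Spots of a probe were averaged. Probes were named by matching their accessions to RefSeq symbols, which named 27572 of 41174 probes (67%). A probe was tested when some group had it well above its Cy5 background on 50% or more of its arrays (30294 probes). One limma model with a mean for each of the 23 groups of dose and time was fitted, with Benjamini-Hochberg adjustment over all tested probes, and was tested on simulated data. The named genes were all 9 members, those genes of the 5 pathway lists that were called (1 is not reported here), and the genes with the most similar ratios. The members and lists were chosen with earlier results of these data known. A gene not well above background on any array of a group has only a bound there, the mean Cy5 signal of the brighter group over the floor of the dimmer one after loess and quantile scaling of mean brightness between arrays, which is open to dye bias. A fitted difference printed for such a group is one of the measured ratios, not of levels. The number of arrays limits the precision. Replicates were separate mice, and mice recurred over time, so the replicate numbers pair time points but not doses.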

Additional observations from a re-analysis of the deposited data

Results flagged for a closer look

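Of 131 groups of 4 or more arrays examined over the 9 genes, 15 held 1 array far from the others of its group, where chance alone gives about 5%. All values are log2 ratios of Cy5 to Cy3. Plg read 7.13 in 1 Gy mouse M006 at d28, 1.88 in 6 Gy mouse M020 at d28 and -0.22 in 1 Gy mouse M010 at d4. Sham mouse M002 at d4, read on scanner 2 unlike the other 3 arrays of its group, stood high for both Serpine2 (3.20) and Vwf (4.57). Serpine2 also stood high in 3 Gy mouse M013 at d4 (1.65), whose Plau was low (-0.89). Plat read -1.10 in sham mouse M005 at d4, and Plau -0.07 in 6 Gy mouse M018 at d4. Tfpi read -1.51 in 3 Gy mouse M011 and -1.45 in 6 Gy mouse M017 at h2, -0.62 in mouse M017 at d4 and 0.21 in sham mouse M003 at d7. Thbd read -0.09 in 3 Gy mouse M011 at h2, and Vwf 1.01 in 1 Gy mouse M009 at d28.

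The difference between the lethal dose and 6 Gy passed its own limma test for Plaur at h2 (1.69) and d4 (1.5) and for F3 at h2 (-1.24) and d4 (-1.96). The second probe of each gene was called only for F3 at d4 (-1.37), with 0.66 and 0.38 for Plaur and -0.98 for F3 at h2. The 20 Gy effect on Plaur differed between d7 and h2 by -1.35, and by -0.35 with the second probe, which was not called.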

How the results depend on the processing

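Depth limits the 20 Gy values, since those arrays were dimmer in Cy5 than the sham arrays of h2 and d4 on the same scanner and sat on scanner 1 only, so that a fit with scanner as a block takes the scanner's effect from the sham, 1, 3 and 6 Gy arrays. Reversals came from rescaling, and their cause was not tested. With median centring Plat (-1.80, called lower) and Plaur (-0.63) at 20 Gy h2, Plaur between 20 and 6 Gy at d4 (-0.41) and the change of the 20 Gy effect on Plaur (1.19) turned sign. In the deposited values F3 turned at 20 Gy h2 (0.40) and d4 (0.26), between 20 and 6 Gy at h2 (0.16) and d4 (0.03) and in sham skin at d21 against h2 (1.02). With the scanner's own ratio Tfpi turned between 20 and 6 Gy at h2 (-1.71).

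The number called after 20 Gy (6 of 27) became 14 with the scanner's own ratio and 10 with plain background subtraction, and between 20 and 6 Gy (4 of 27) it became 13 and 10, and 8 with quantile scaling. After 1, 3 and 6 Gy (1 of 135) it was 0 with the scanner's ratio, background subtraction, median centring, quantile scaling, scanner as a block, scanner 2 alone or scan date as a random block, 3 with no minimum fold and 6 on scanner 1 alone, where each of these groups has 1 array that is assumed to vary like the others. Over time in sham skin (0 of 36) it was 1 with median centring, 5 in the deposited values and 2 on scanner 1 alone. For the change of the 20 Gy effect (1 of 9) it was 3 with the scanner's ratio, quantile scaling or scanner 1 alone, 2 with background subtraction, scan date as a random block or the mouse as a random replicate block, and 0 in the deposited values. The mouse as a replicate block (correlation 0.119) changed 1 of 234 member results. With slide as a random block, Serpine2 at 20 Gy d4 and F3 between 20 and 6 Gy at h2 were no longer called.

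Leaving out each of the 24 mice in turn gave 5 to 7 calls after 20 Gy, 3 to 5 between 20 and 6 Gy, 0 to 3 after 1, 3 and 6 Gy, 0 to 1 in sham skin and 0 to 2 for the change of effect. The sublethal count went to 0 without sham mice M001, M004 or M005 or 3 Gy mice M012 or M014 and to 3 without sham mouse M002, whose omission also gave the 1 sham call. The change of effect went to 0 without sham mouse M001 or 20 Gy mice M022 or M023 and to 2 without sham mouse M002 or 1 Gy mice M006 or M009.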
